A study of Mus musculus with 5 samples.

Results

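Integrins are the receptors by which a cell grips its matrix, and 7 integrin genes that do not belong to the hemidesmosome are described here: Itga2, Itga5, Itgav, Itgb1, Itgb5, Itgb6 and Itgb8. They were taken by name, with every probe set that the platform annotation gives to that single symbol, which made 23 probe sets of the 34945 with 1 gene symbol (45101 on the array in all) and 7 genes of 18193. The cells were B9, a mouse line derived from a cutaneous squamous cell carcinoma and given as HRAS-Q61L, so that every group carries an activated RAS upstream of the RAF kinases. They were held for 17 h with vemurafenib (PLX4032) at 1 µM, with PLX7904 at 1 µM or with the vehicle dimethyl sulfoxide (DMSO), and the data comprised 2, 2 and 1 Affymetrix 3' arrays in that order. Vemurafenib was made against mutant BRAF and is known to activate the MAPK pathway where RAS rather than BRAF is mutated, and PLX7904 belongs to the class named paradox breakers for avoiding this. All groups are the same single line, the arrays are labelled biological replicates with no further word on the cultures, and p-values therefore measure the spread between these arrays, which may be technical. The control is given as 0.2% DMSO, while the stated stock volume amounts to 0.02% of the medium, so that the vehicle of the treated cultures relative to the control is not settled.

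An integrin is a pair of an alpha and a beta chain, and the pair decides which matrix protein is bound. The beta-1 chain joins many alpha chains: with alpha-2 it forms a collagen receptor of keratinocytes and with alpha-5 the classical fibronectin receptor. The alpha-v chain joins beta-1, beta-5, beta-6 or beta-8, whose pairs recognise the RGD sequence in vitronectin, fibronectin and the latency peptide of TGF-beta. In skin, alpha-v/beta-6 is low in resting epidermis and appears in wounds and squamous carcinomas, and alpha-v/beta-6 and alpha-v/beta-8 release active TGF-beta from its latent form. RAS-RAF-ERK signalling is known to change which integrins a keratinocyte makes.

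Levels are the deposited MAS5 signals, a brightness per probe set on a linear scale. A difference is one of log2(signal + 3.34), where 3.34 is a pseudocount, and a gene was called when the adjusted p of limma's test over all 10852 genes tested was under 0.05. A gene was tested when its brightest probe set had a mean over groups of at least 47.4. Of the 7 integrin genes, 5 were tested: Itga2, Itgav, Itgb1, Itgb5 and Itgb6. Itga5 and Itgb8 lay below that signal with each of their probe sets and were not tested. Of the 23 probe sets, 12 passed.

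Median signals were 49.5 with DMSO, 44.1 and 44.5 with vemurafenib, and 47.0 and 51.9 with PLX7904, lowest on the vemurafenib arrays. The log2 signals correlated at r = 0.980 to 0.990 over the genes tested. Braf, the kinase both compounds target, was not called in any comparison (vemurafenib minus DMSO log2 -0.07, SE 0.18, limma adjusted p = 0.848). All 9 keratinocyte and epithelial markers passed the filter on signal, among them Krt14 with 20571 with DMSO and Trp63 with 4832. Of 8 fibroblast markers 1 passed, Pdgfra, and the summed signal of the list was 191 with DMSO, 403 and 423 with vemurafenib and 214 and 268 with PLX7904. Pdgfra itself read 83.3 with DMSO, 231 and 264 with vemurafenib and 132 and 138 with PLX7904, while Col1a1 read 7.75 to 33.2 and Dcn 7.46 to 43.4 over the 5 arrays. The fibroblast sum thus moved with vemurafenib, with Pdgfra as its largest part. Below the filter, Col1a1, Col1a2, Dcn and Thy1 read higher on both vemurafenib arrays than with DMSO. Pdgfrb and Col3a1 read lower on both, and Lum lay on either side. The part of these signals in the integrin differences was not tested. Immune markers summed to 138 with DMSO and 183 to 247 in the treated arrays (1 of 5 on the array passed), endothelial markers to 181 and 48.5 to 203 (1 of 4), and melanocyte markers to 41.6 and 115 to 144 (1 of 4).

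With vemurafenib the collagen receptor chain Itga2 and the common chain Itgb1 rose, and Itgb5, a partner of alpha-v, fell. Against DMSO, 2 of the 5 genes tested rose and 1 fell, where 5.43% of all genes tested rose and 5.21% fell. Against PLX7904 the count was again 2 higher and 1 lower, where 6.43% of all genes were higher and 6.87% lower. Itgav was called in neither comparison. With PLX7904 against DMSO, limma called 0 of the 5 integrin genes and 0% of all genes in either direction. In that comparison 0 of the 5 integrin genes and 6.65% of all genes lay at an unadjusted p under 0.05, and limma with robust fitting also called 0 of the 5. The median of the 5 log2 differences from DMSO was -0.04 with vemurafenib and -0.09 with PLX7904, beside -0.05 and -0.01 over all genes. With vemurafenib 2 of the 5 lay above 0 and 3 below, and with PLX7904 1 lay above and 4 below. The 2 vemurafenib arrays serve in both vemurafenib comparisons. The lone DMSO array serves in both comparisons with vehicle, and it is assumed to vary as the treated arrays do. All of the integrin calls depended on letting the variance follow intensity in limma, and without that trend 0 of the 5 genes were called higher or lower in any comparison.

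**Figure D1:**
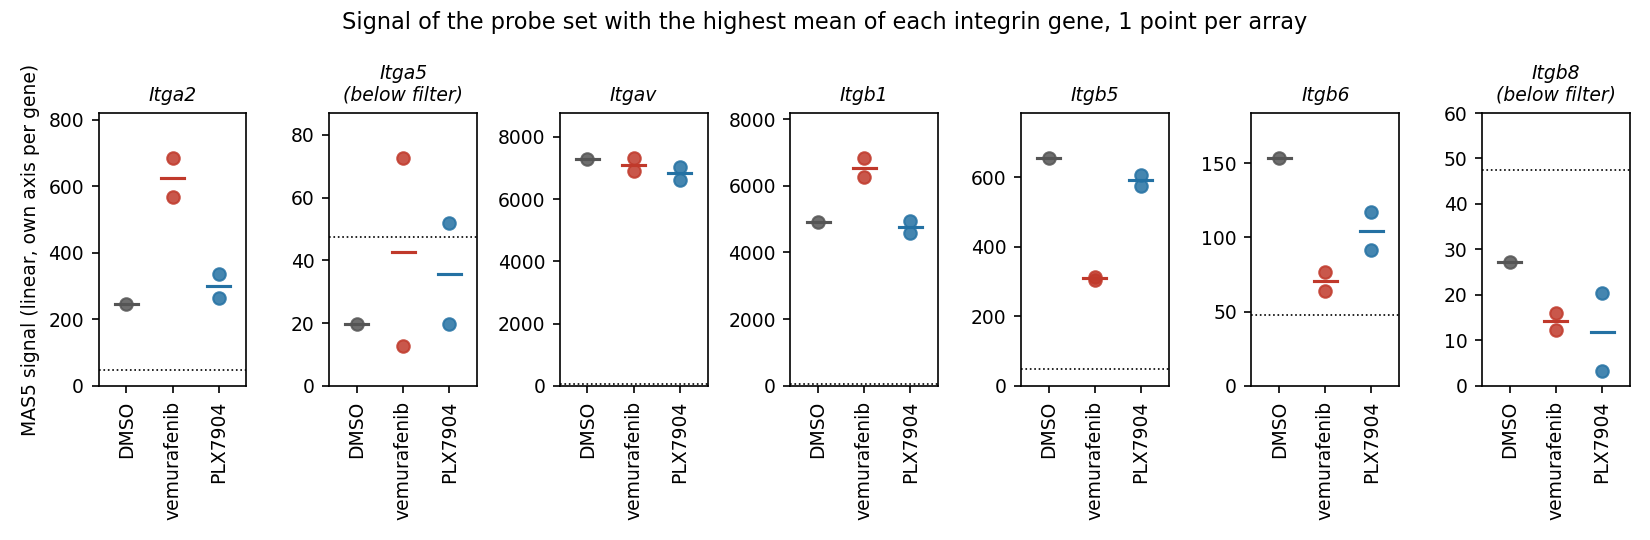
MAS5 signal (linear, a separate axis from 0 for each gene) of the probe set with the highest mean of each of the 7 integrin genes, with 1 point per array, a bar at the group mean and a dotted line at the filter of 47.4. Itga2 reads 567 and 683 with vemurafenib against 245 with DMSO and 265 and 335 with PLX7904, Itgb5 reads 304 and 314 against 576 to 654, and Itga5 and Itgb8 lie below the filter on average.

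The 250 bases before the RefSeq start of the 3 genes that were called are shown because these genes moved in opposite directions. Promoter windows were found for all 7 genes, 8 windows in all. Capitals mark matches, on either strand, to an AP-1 site (TGANTCA), an ETS core (CGGAAG), a TEAD site (GGAATG) or an SP1 box (GGGCGG), and no printed matches overlap. The bases are from RefSeq, build GRCm38.p6, 5′ to 3′ on the strand of the gene.
Itga2, chr13:114932101-114932350, minus strand: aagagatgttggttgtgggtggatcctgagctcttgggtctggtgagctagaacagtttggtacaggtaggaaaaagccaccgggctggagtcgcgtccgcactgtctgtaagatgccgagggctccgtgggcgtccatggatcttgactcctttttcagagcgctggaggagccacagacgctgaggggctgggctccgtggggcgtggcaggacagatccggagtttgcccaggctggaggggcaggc
Itgb1, chr8:128685404-128685653, plus strand: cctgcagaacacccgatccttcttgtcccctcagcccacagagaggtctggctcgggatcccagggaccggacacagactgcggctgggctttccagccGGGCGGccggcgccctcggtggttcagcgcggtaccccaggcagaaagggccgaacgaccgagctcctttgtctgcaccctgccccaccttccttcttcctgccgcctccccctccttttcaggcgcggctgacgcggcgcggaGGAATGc
Itgb5, chr16:33829415-33829664, plus strand: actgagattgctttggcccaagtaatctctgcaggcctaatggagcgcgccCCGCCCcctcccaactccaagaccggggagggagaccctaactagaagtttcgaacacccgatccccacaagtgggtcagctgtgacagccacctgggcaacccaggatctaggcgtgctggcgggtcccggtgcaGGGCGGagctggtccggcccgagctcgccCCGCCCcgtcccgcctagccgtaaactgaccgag
The Itga2 window held none of the 4 motifs. The Itgb1 window held 1 TEAD site, beginning 7 bases before the start, and 1 SP1 box, beginning 151 bases before it. The Itgb5 window held 3 SP1 boxes, beginning 199, 63 and 34 bases before the start. Among all 32851 promoter windows of the same length, 6.75% held the AP-1 letters, 13.6% the ETS core, 12.6% the TEAD letters and 32.7% the SP1 box. None of the 8 integrin windows held the AP-1 letters, and the ETS core stood only in that of Itgav. A match is a string of letters in this window, and its absence says nothing of a factor elsewhere.

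Among the chains that pair with beta-1, Itga2 showed the largest difference of the 5 genes tested. Its only probe set read 245 with DMSO, 683 and 567 with vemurafenib, and 265 and 335 with PLX7904. Both vemurafenib arrays lay above the other 3, and the PLX7904 arrays lay a little above the DMSO array. Itga2 rose 2.52-fold with vemurafenib over DMSO (95% interval 1.89 to 3.36, log2 1.33, SE 0.19, limma adjusted p = 0.00191). Of all genes tested, 1.29% had a larger absolute difference in this comparison. Against PLX7904 at the same dose and time it was 2.08-fold higher (1.64 to 2.63, adjusted p = 0.00172). PLX7904 and DMSO differed by 0.28 on the log2 scale (SE 0.19, adjusted p = 0.836), with an interval from -0.14 to 0.69 that leaves room for a rise of 1.62-fold. The order of the levels was vemurafenib, PLX7904, DMSO. Limma did not separate the last 2, and DMSO, with 1 array, has no spread of its own.

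Itgb1 encodes the chain that alpha-2 and alpha-5 both need. Its brightest probe set read 4921 with DMSO, 6249 and 6817 with vemurafenib, and 4586 and 4949 with PLX7904. The vemurafenib arrays again lay above the other 3, and the DMSO array fell between the PLX7904 arrays. Itgb1 rose 1.33-fold over DMSO (95% interval 1.16 to 1.52, log2 0.41, SE 0.09, limma adjusted p = 0.0168) and was 1.37-fold higher than with PLX7904 (1.23 to 1.53, adjusted p = 0.00289). This was a modest difference, exceeded in absolute size by 22.3% of genes in the comparison with DMSO. Between PLX7904 and DMSO the log2 difference was -0.05 (interval -0.24 to 0.15, adjusted p = 0.967). Without vemurafenib replicate 2 the difference from DMSO was 0.34 and was not called (adjusted p = 0.0711), and leaving out vemurafenib replicate 1 gave 0.47. At the brightest probe set the order of the levels was vemurafenib, DMSO, PLX7904, the last 2 not being separable.

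Itgb1 has 6 probe sets, and those bright enough to test did not read alike. The next brightest, 1452545_a_at, read 3515 with DMSO, 5145 and 5304 with vemurafenib, and 3967 and 4152 with PLX7904. In the fit over all 19755 probe sets it was 1.49-fold higher than with DMSO (log2 0.57, SE 0.08, limma adjusted p = 0.00437) and 1.29-fold higher than with PLX7904 (adjusted p = 0.0106). With PLX7904, 1452545_a_at lay above DMSO by 0.21 on the log2 scale (interval 0.02 to 0.39, limma unadjusted p = 0.0333). This was not called (limma adjusted p = 0.793), and it is the reverse of the order at the brightest probe set. A dimmer probe set, 1427771_x_at, read 384 with DMSO, 402 and 419 with vemurafenib, and 347 and 322 with PLX7904. The vemurafenib arrays were again highest, but the difference from DMSO was 0.10 (SE 0.16, adjusted p = 0.765) and was not called. The suffix x marks probe sets whose probes may match other transcripts. The remaining 3 had mean signals of 11.6 to 31.3 and were not tested. With the mean of all 6 the log2 difference from DMSO was 0.40 (adjusted p = 0.333) and that from PLX7904 0.24 (adjusted p = 0.455), and neither was called.

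Itga5, the alpha chain of the fibronectin receptor, had 4 probe sets with mean signals of 23.6 to 32.8, all under the filter. The brightest, 1423267_s_at, read 19.9 with DMSO, 72.5 and 12.8 with vemurafenib, and 19.8 and 51.8 with PLX7904. Replicates of 1 treatment differed more than the groups did. Without the filter the log2 difference between vemurafenib and DMSO was 0.59 with an SE of 0.999 (limma adjusted p = 0.841), so a change of several fold in either direction was not detectable from this signal. Another probe set, 1458996_at, read 30.5 with DMSO, 57.4 and 35.8 with vemurafenib, and 3.54 and 2.86 with PLX7904. No other Itga5 probe set showed that order, and no detection calls were used here to say whether any of these signals exceeds background.

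Itgav, the chain shared by the beta-5, beta-6 and beta-8 pairs, read 7282 with DMSO, 6901 and 7305 with vemurafenib, and 6624 and 7041 with PLX7904. The groups overlapped in both comparisons that involve vemurafenib. The vemurafenib minus DMSO log2 difference was -0.04 (SE 0.08, 95% interval -0.21 to 0.14, limma adjusted p = 0.816), which at this brightest probe set bounds a rise at 1.10-fold and a fall at 1.16 times. With PLX7904 it was -0.09 (interval -0.27 to 0.08, adjusted p = 0.895). A dimmer probe set, 1421198_at, read 246 with DMSO, 354 and 268 with vemurafenib, and 184 and 238 with PLX7904. Against DMSO this probe set was 1.25-fold higher with vemurafenib (interval 0.87 to 1.80, limma adjusted p = 0.457), a wider range than at the brightest. It was 1.47-fold higher with vemurafenib than with PLX7904 and was not called in the fit over all probe sets (log2 0.55, SE 0.19, adjusted p = 0.108). Without vemurafenib replicate 2 that difference was 0.75 and was called (adjusted p = 0.0147). The other 3 Itgav probe sets had mean signals of 7.90 to 20.9 and were not tested.

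Itgb5, which with alpha-v makes a vitronectin receptor, was the member that fell. Its brightest probe set, 1417533_a_at, read 654 with DMSO, 304 and 314 with vemurafenib, and 608 and 576 with PLX7904. The vemurafenib arrays lay far below the other 3, and the PLX7904 arrays lay just under DMSO. Itgb5 was 2.10 times lower with vemurafenib than with DMSO (95% interval 1.70 to 2.61, log2 -1.07, SE 0.14, limma adjusted p = 0.00122) and 1.91 times lower than with PLX7904 (1.60 to 2.27, adjusted p = 0.000663). Of all genes tested, 2.52% had a larger absolute difference from DMSO with vemurafenib. PLX7904 differed from DMSO by -0.14 (interval -0.45 to 0.17, adjusted p = 0.907). At 1417533_a_at the order of the levels was DMSO, PLX7904, vemurafenib, with the first 2 not separable. Relative to Itgav on the same array, Itgb5 stood 1.02 and 1.06 log2 units lower with vemurafenib than on the DMSO array, and at 0.03 and -0.13 with PLX7904, so that the pair's chains changed unequally.

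Itgb5 has 4 probe sets, all of them tested, and all 4 read lower on both vemurafenib arrays than on the other 3 arrays. They read 1 gene on the same arrays and are not independent. The share of all probe sets that split in this way is not given here. Probe set 1456133_x_at read 494 with DMSO, 259 and 234 with vemurafenib, and 415 and 395 with PLX7904. Probe set 1417534_at read 220.2 with DMSO, 106 and 109.9 with vemurafenib, and 274 and 253 with PLX7904. Both were called lower than DMSO in the fit over all probe sets (at 0.501 and 0.497 of its level, limma adjusted p = 0.0077 and 0.0227), and both were called lower than PLX7904 (adjusted p = 0.011 and 0.00255). Both PLX7904 arrays lay above DMSO at 1417534_at, unlike at the brightest probe set (log2 difference 0.25, limma adjusted p = 0.927). The fourth, 1456195_x_at, was more uneven: 609 with DMSO, 315 and 408 with vemurafenib, and 463 and 676 with PLX7904. Its log2 difference from DMSO was -0.76 (SE 0.23, adjusted p = 0.0817) and that from PLX7904 -0.64 (adjusted p = 0.0657), and neither was called. When vemurafenib replicate 1 was left out and the brightest probe set chosen anew, this one stood for Itgb5 and the gene was not called (log2 -0.57, adjusted p = 0.0701, and -0.45 against PLX7904, adjusted p = 0.109). With 1417533_a_at kept, leaving out any 1 treated array left Itgb5 called in both comparisons. Over the 12 integrin probe sets tested, vemurafenib against DMSO gave 3 higher and 3 lower, where 3.74% and 3.41% of all probe sets were called. Against PLX7904 the counts were also 3 and 3, where 4.63% and 4.54% of all probe sets were. In both comparisons the lower ones were all of Itgb5 and the higher ones of Itga2 and Itgb1. These counts thus hold several probe sets of the same gene and are not counts of separate changes.

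**Figure D2:**
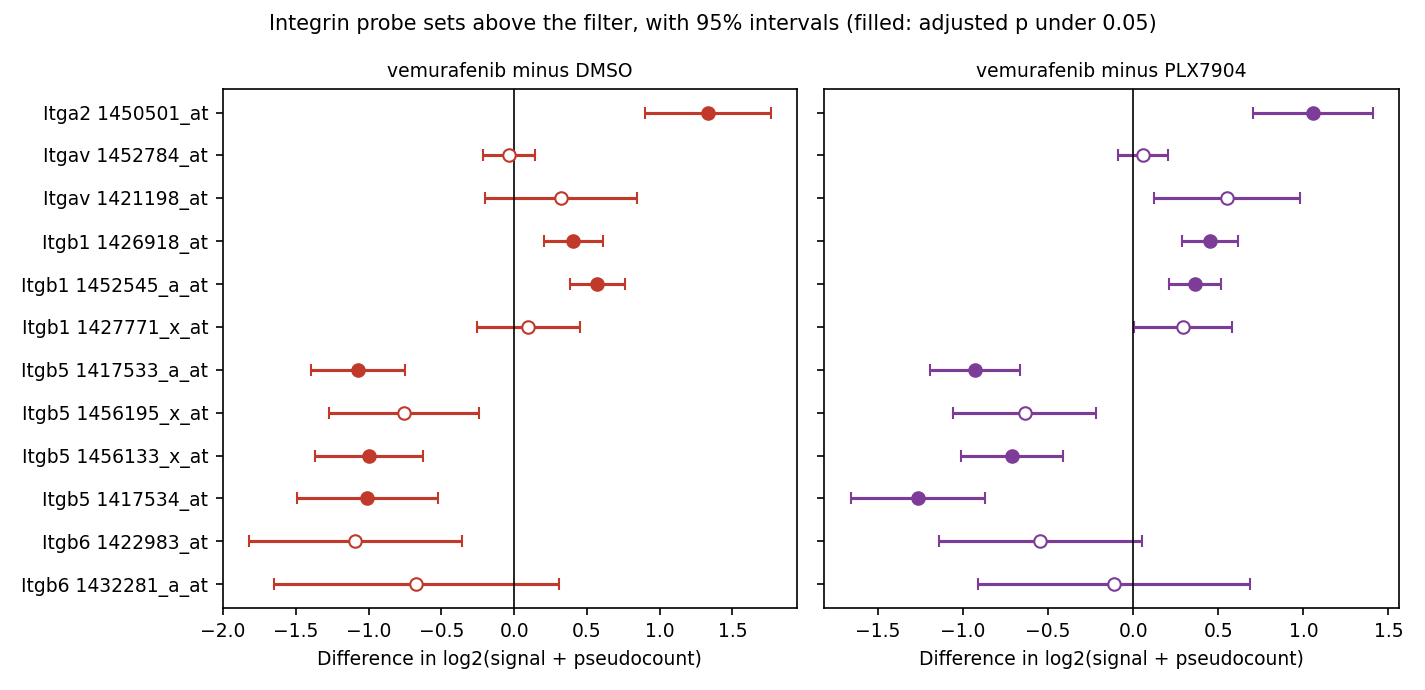
Difference in log2(signal + pseudocount) of each of the 12 integrin probe sets above the filter, vemurafenib minus DMSO on the left and vemurafenib minus PLX7904 on the right, with 95% intervals from limma over all probe sets and filled points where the adjusted p was under 0.05. The 4 Itgb5 probe sets lie between -1.07 and -0.76 against DMSO, and the 3 Itgb1 probe sets between 0.10 and 0.57.

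Itgb6, the wound and carcinoma partner of alpha-v, read 153 with DMSO, 76.6 and 64.2 with vemurafenib, and 91.8 and 117 with PLX7904. No array of 1 group overlapped another group: DMSO was highest, PLX7904 lay in between and vemurafenib was lowest. The vemurafenib minus DMSO log2 difference was -1.09, as large as that of Itgb5, but with an SE of 0.33 it was not called (95% interval -1.83 to -0.35, limma adjusted p = 0.0663). With PLX7904 the difference from DMSO was -0.55 (interval -1.29 to 0.20, adjusted p = 0.831), and between the compounds it was -0.55 (interval -1.15 to 0.06, adjusted p = 0.232). Itgb6 was not called under any of the 19 alternatives that gave it a value against DMSO with vemurafenib, with adjusted p between 0.0551 and 0.187. The second probe set, 1432281_a_at, read 116 with DMSO, 90.9 and 56.4 with vemurafenib, and 102 and 58.9 with PLX7904. There the vemurafenib and PLX7904 arrays overlapped (log2 difference -0.11, SE 0.36, adjusted p = 0.887), so this probe set did not repeat the order of the brighter one.

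Itgb8, the other partner of alpha-v that acts on latent TGF-beta, had 1 probe set at a mean signal of 17.8 and was not tested. It read 27.3 with DMSO, 12.2 and 16.1 with vemurafenib, and 3.28 and 20.4 with PLX7904. The PLX7904 arrays alone spanned most of this range. Without the filter the log2 difference between vemurafenib and DMSO was -0.82 with an SE of 0.93 (limma adjusted p = 0.741).

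**Figure D3:**
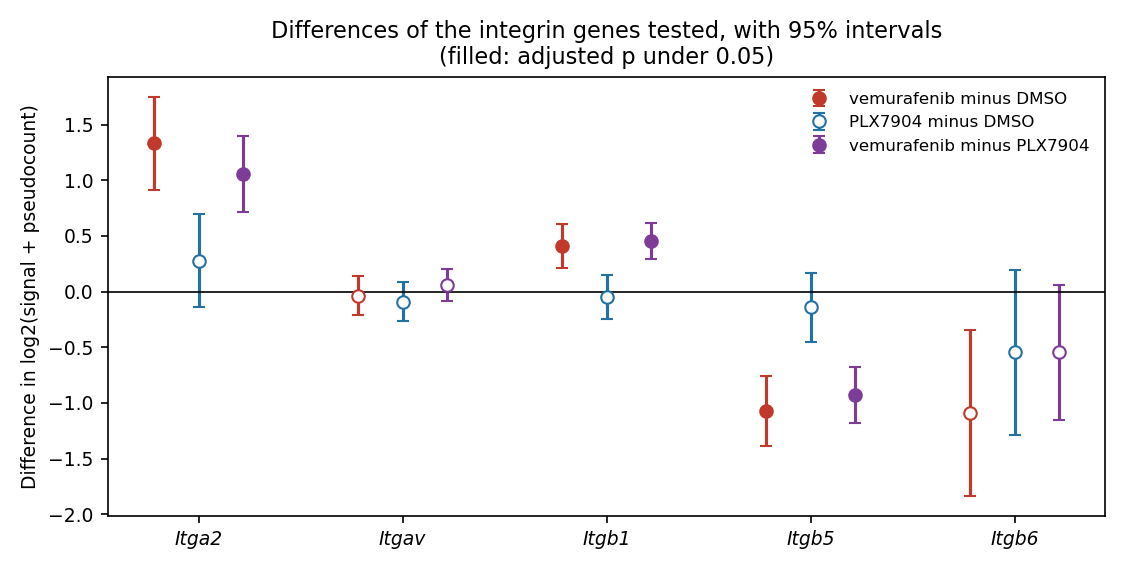
Difference in log2(signal + pseudocount) of the 5 integrin genes tested in the 3 comparisons, with 95% intervals from limma and filled points where the adjusted p was under 0.05. Itga2 and Itgb1 lie above 0 and Itgb5 below 0 in both comparisons with vemurafenib, while the intervals of all 5 genes include 0 for PLX7904 minus DMSO.

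The median difference from DMSO depended on signal: with vemurafenib it was -0.19 in the dimmest 25% of the genes tested, which holds Itgb6, -0.11 in the next, which holds Itga2 and Itgb5, and 0.05 in the brightest, which holds Itgav and Itgb1. With quantile normalization, which gives all arrays 1 distribution, Itgb1 was 0.36 above DMSO and called (limma adjusted p = 0.0274). With cyclic loess it was 0.34 above and called (adjusted p = 0.0391). Itga2 was at 1.43 and Itgb5 at -0.99 and -0.98 after these scalings, Itga2 being called in both (adjusted p = 0.00171 and 0.00119) and Itgb5 too (0.0024 and 0.00197).

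Genes whose signals ran most like each called member over the 5 arrays were found by the root mean square distance between log2 values centred on their own mean. For Itga2 these were Hsd11b1, which regenerates active glucocorticoid (distance 0.05), Mcpt8, a protease gene named for mast cells (0.07), and Speer3 (0.08). For Itgb1 they were Ssh2, a cofilin phosphatase (0.02), Tradd, an adaptor of the TNF receptor (0.03), and the ligand Wnt5a (0.03). For Itgb5 they were Ttc30b (0.04), Smad6, an inhibitor of BMP signalling (0.04), and the peptidase Aopep (0.06). Among the members themselves, Itgav and Itgb1 stood at a distance of 0.20, Itgb5 and Itgb6 at 0.25, and Itga2 and Itgb5 at 1.06. Over 5 arrays such a likeness describes these arrays alone.

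The other integrin genes on the array were set beside the members. Of 20 listed, 18 were on the array and 6 passed the filter. Without limma's intensity trend, every call against DMSO in this list and those that follow ended. Adjusted p in limma was then 0.117 for Itga6, 0.0627 for Thbs1, 0.0803 for Ltbp2, 0.093 for Rab21 and 0.0708 for Plaur. Against DMSO 1 of the 6 rose with vemurafenib and 0 fell (median 0.09, all genes -0.05), and against PLX7904 3 were higher and 0 lower (median 0.25, all genes -0.04). Of all genes tested, 5.43% rose and 5.21% fell against DMSO, and 6.43% were higher and 6.87% lower than with PLX7904. Itga6, the alpha chain of the hemidesmosome and of a laminin receptor with beta-1, rose 1.40-fold over DMSO, from 14174 to 19946 and 19643 (limma adjusted p = 0.00117). Itgb4, its hemidesmosome partner, was 1.24-fold higher than DMSO and not called (adjusted p = 0.0782), and 1.40-fold higher than with PLX7904 (adjusted p = 0.00396). Itga3, which with beta-1 binds laminin-332, was 1.32-fold higher than DMSO and just missed the threshold (adjusted p = 0.0513), and 1.34-fold higher than with PLX7904 (adjusted p = 0.0151). Without PLX7904 replicate 2 the latter was 0.32 on the log2 scale and was not called (adjusted p = 0.0575), nor was it when all its probe sets were averaged (0.11, adjusted p = 0.884). Averaged in that way, the difference from DMSO turned to -0.15 (adjusted p = 0.872). Itga7, Itga2b and Itgb7 were called in no comparison (log2 -0.65, -0.16 and -0.13 between vemurafenib and DMSO). Without vemurafenib replicate 1 Itga7 was called lower than DMSO (adjusted p = 0.0411). Of the chains typical of leukocytes, Itgb7 read 444 to 495 over the 5 arrays and passed the filter, while Itgal, Itgam, Itgax and Itgb2 read 1.37 to 42.8 and lay below it.

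Among 15 tested genes of matrix ligands (26 listed, 24 on the array), 5 fell and 0 rose with vemurafenib against DMSO, at a median of -0.22 beside -0.05 over all genes, and 3 were lower and 0 higher than with PLX7904. Over all genes 5.21% fell against DMSO and 6.87% were lower than with PLX7904. Thbs1, thrombospondin-1, read 2775 with DMSO, 1253 and 1282 with vemurafenib, and 2086 and 2226 with PLX7904. It was the largest of these falls, 2.19 times against DMSO (log2 -1.13, SE 0.10, limma adjusted p = 0.000109). Npnt, the basement membrane protein nephronectin, was 1.59 times lower than DMSO (adjusted p = 0.00698) and 1.51 times lower than with PLX7904 (adjusted p = 0.00357). Ccn2, a matricellular protein that binds alpha-v integrins, differed from DMSO by -0.58 on the log2 scale (adjusted p = 0.0086). With PLX7904 Ccn2 differed from DMSO by -0.43 (adjusted p = 0.415), and between the compounds by -0.15 (adjusted p = 0.311). Mfge8, an RGD protein bound by alpha-v/beta-5, was 1.38 times lower than DMSO (adjusted p = 0.0403) and 1.34 times lower than with PLX7904 (adjusted p = 0.0218). Fn1, fibronectin, read 4012 with DMSO, 3228 and 3029 with vemurafenib, and 3546 and 3865 with PLX7904, a fall of 1.28 times (adjusted p = 0.0361). The calls of Fn1 and Mfge8 against DMSO ended without vemurafenib replicate 2 (log2 -0.31, adjusted p = 0.139, and -0.37, adjusted p = 0.158), and the call of Mfge8 also ended after quantile normalization (-0.43, adjusted p = 0.0649). Against PLX7904 the call of Mfge8 ended without vemurafenib replicate 2 (-0.32, adjusted p = 0.144) and without PLX7904 replicate 1 (-0.36, adjusted p = 0.0825). With the mean of all probe sets 3 of these genes were called lower than DMSO and 1 lower than with PLX7904. The calls against DMSO that ended there were those of Npnt (-0.86, limma adjusted p = 0.153) and Mfge8 (-0.47, adjusted p = 0.0801).

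The latent TGF-beta complex, on which alpha-v/beta-6 and alpha-v/beta-8 act, had 6 genes tested of 9 listed. Against DMSO 1 fell with vemurafenib and 0 rose (median -0.53, all genes -0.05), and the same counts held against PLX7904 (median -0.35). The shares of all genes called lower were 5.21% and 6.87%. Ltbp2, a latent TGF-beta binding protein, read 1147 with DMSO, 692 and 658 with vemurafenib, and 1015 and 1084 with PLX7904, and fell 1.70 times (log2 -0.76, SE 0.12, limma adjusted p = 0.00324). Ltbp4 and Tgfb3 differed by more, -0.999 (SE 0.29) and -0.988 (SE 0.35), and were not called (adjusted p = 0.054 and 0.104). Tgfb1 stood at 0.14 (SE 0.22, adjusted p = 0.746). With robust fitting 3 of the 6 were called lower than DMSO, and the share of all genes called lower under that setting is not given here.

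Of 27 tested genes of the adhesion plaque, which ties integrin tails to actin, 3 rose and 0 fell with vemurafenib against DMSO (32 listed, median 0.24, all genes -0.05). Against PLX7904, 7 were higher and 0 lower (median 0.16, all genes -0.04). The shares of all genes called higher were 5.43% against DMSO and 6.43% against PLX7904. Talin-1 (Tln1), which binds beta tails and activates the receptor, read 496 with DMSO, 671 and 646 with vemurafenib, and 454 and 445 with PLX7904. It was 1.46-fold higher than with PLX7904 (limma adjusted p = 0.00855). Vasp, an actin regulator at focal adhesions, rose 1.36-fold over DMSO (adjusted p = 0.0251), the adaptor Pxn, paxillin, 1.25-fold (adjusted p = 0.0208) and the kinase Src 1.38-fold (adjusted p = 0.0388). Leaving out vemurafenib replicate 2 left 1 call against DMSO, and leaving out PLX7904 replicate 1 left 4 against PLX7904. Tns3 and Crk were among the 7 (log2 0.38 and 0.26), but with the mean of all probe sets they lay at -0.11 and -0.03. The call of Src against DMSO ended without either vemurafenib array (adjusted p = 0.116 and 0.0722), that of Vasp without replicate 1 (adjusted p = 0.0924) and that of Pxn without replicate 2 (adjusted p = 0.0981). Pxn was also not called against DMSO after quantile normalization (log2 0.22, adjusted p = 0.0794) or cyclic loess (0.23, adjusted p = 0.0891). Src stood at 0.23 against DMSO without probe sets of suffix x, s or a (adjusted p = 0.379).

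Of 16 genes of integrin activity and traffic, all tested, 4 rose and 0 fell against DMSO (median 0.13, all genes -0.05) and 4 were higher and 0 lower than with PLX7904 (median 0.01, all genes -0.04). Over all genes 5.43% rose against DMSO and 6.43% were higher than with PLX7904. Rab21, a GTPase that binds alpha chains and recycles integrins, read 5139.6 with DMSO, 7806 and 7656 with vemurafenib, and 6015 and 5813 with PLX7904, and rose by 0.59 on the log2 scale (SE 0.08, limma adjusted p = 0.00113). Rap1b, a GTPase that promotes integrin activation, rose 1.38-fold (adjusted p = 0.00225), Rasa1, a RAS GTPase-activating protein, 1.32-fold (adjusted p = 0.0146) and the recycling GTPase Rab11a 1.26-fold (adjusted p = 0.0185). The call of Rasa1 against DMSO ended without vemurafenib replicate 2 (log2 0.36, adjusted p = 0.0744). The call of Rab11a against DMSO ended without vemurafenib replicate 1 (log2 0.31, adjusted p = 0.0873) and without probe sets of suffix x, s or a (0.12, adjusted p = 0.529). Without vemurafenib replicate 1, 2 genes of the list were called higher than with PLX7904.

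Of 13 membrane partners, all tested, 4 rose and 1 fell against DMSO (median 0.08, all genes -0.05), and 3 were higher and 4 lower than with PLX7904 (median 0.04, all genes -0.04). Over all genes 5.43% rose and 5.21% fell against DMSO, and 6.43% were higher and 6.87% lower than with PLX7904. The tetraspanin Cd82, which associates with integrins, read 145 with DMSO, 384 and 356 with vemurafenib, and 194 and 162 with PLX7904, and rose 2.52-fold (log2 1.33, SE 0.20, limma adjusted p = 0.00282). Averaging all its probe sets gave 0.44, not called (adjusted p = 0.379). Plaur, the urokinase receptor, rose 2.04-fold (adjusted p = 0.000137), the tetraspanin Cd9 1.29-fold (adjusted p = 0.00524) and the hyaluronan receptor Cd44 1.29-fold (adjusted p = 0.00736), though Cd44 stood at 0.04 with all its probe sets averaged (adjusted p = 0.888). Cav1, caveolin-1, was 1.41 times lower (adjusted p = 0.00223), and against PLX7904 Cav1, Cd47, Cd81 and Slc3a2 were 1.17 to 1.22 times lower. Leaving out either vemurafenib array left 0 of those 4 called, and leaving out PLX7904 replicate 1 left 1.

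**Figure D4:**
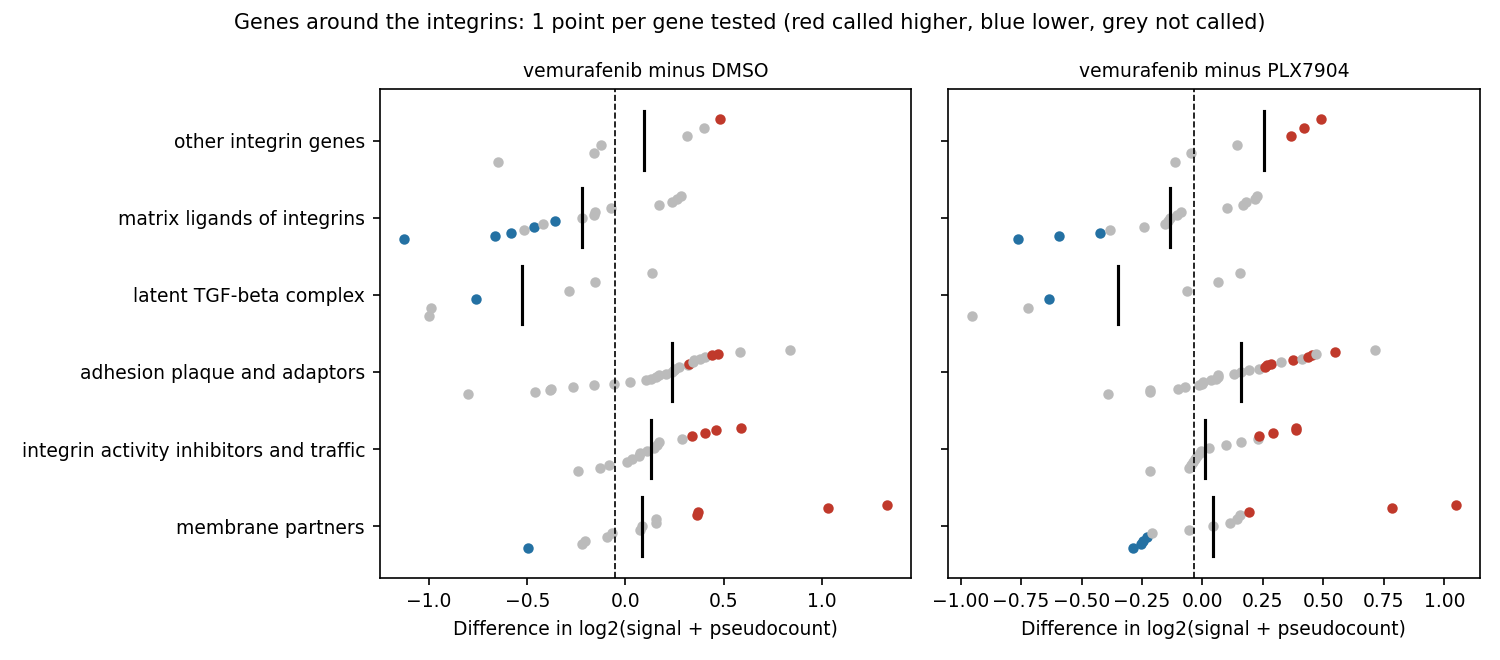
Difference in log2(signal + pseudocount) of each gene tested in the 6 lists around the integrins, vemurafenib minus DMSO on the left and vemurafenib minus PLX7904 on the right, with red points for genes called higher by limma, blue for lower and grey for not called. Black bars mark the list medians and the dashed line the median of all genes tested. Against DMSO, matrix ligands have 5 blue and 0 red points, and the adhesion plaque 3 red and 0 blue. Over all genes tested 5.43% were called higher and 5.21% lower in that comparison.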

How the data were processed

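RNA of B9 cells was measured on 5 arrays (1 DMSO, 2 vemurafenib, 2 PLX7904, 17 h). The deposited values are an intensity per probe set on a linear scale, made by the authors with MAS5 per the submitters' processing notes, which give no version. The mean of the middle 96% of values was 500 on every array, a scaling of whole arrays. No genome build applies to the values, and the promoters come from a RefSeq table of build GRCm38.p6.

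Genes were named from the platform annotation: 34945 probe sets with 1 symbol were used, and 932 with several, 9160 with none and 64 controls were not. A gene was represented by its brightest probe set, taking the mean of the 3 group means. The log2 of signal plus 3.34 (the 10th percentile of all values) was analysed for the 10852 genes with a mean of at least 47.4 (the 50th percentile). This scale understates changes of dim genes. limma 3.58.1 in R 4.3.3 fitted 3 group means (lmFit, eBayes with an intensity trend; 2 residual and 8.27 prior degrees of freedom), with two-sided tests, Benjamini-Hochberg adjustment within a comparison and a threshold of 0.05. A second fit took all 19755 probe sets above the filter. The number of arrays limits the precision. The code was checked on simulated data. Python 3.11.15 and matplotlib 3.10.9 drew the plots.

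The 7 members, the lists and the naming rule were chosen with earlier results of these data known. The rule names all members, the other integrins above the filter, up to 4 called genes at either end of each other list, and the 3 genes nearest to each called member; which of these the text describes was not fixed. Replicate numbers of the labels are not said to mark a shared culture or day. Deviations of same-numbered vemurafenib and PLX7904 arrays correlated at -0.00711 over genes, so the numbers were not used as pairs in the fit reported. Alternatives covered pseudocount, filter, normalization, variance model, probe set rule, replicate block, threshold and leaving out each treated array. Leaving out an array while choosing probe sets anew was added after seeing the data. Integrin proteins were not analysed here.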

Additional observations from a re-analysis of the deposited data

How the results depend on the processing

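Without limma's intensity trend all counts of the integrins were 0, for genes and probe sets against DMSO and PLX7904. The calls against DMSO in the lists around the integrins ended there too. With the mean of all probe sets 1 gene was called higher in each vemurafenib comparison. At an adjusted p under 0.01, 1 gene was higher than DMSO, and at 0.10, 2 were lower, Itgb5 and Itgb6. With the filter at the 75th percentile, or without probe sets of suffix x, s or a, 1 probe set was called lower in each vemurafenib comparison, since fewer were tested. Leaving out each treated array gave 1 to 2 genes higher and 0 to 1 lower than DMSO, and 0 to 1 lower than PLX7904. In the vemurafenib comparisons Itgav changed sign against DMSO (0.03 with median centring, 0.00 without vemurafenib replicate 1), and Itga2, Itgb1, Itgb5 and Itgb6 did not under the alternatives run. For PLX7904 against DMSO, Itgb1 changed sign under 3 of 20 alternatives and Itgb5 under 2, and neither was called. Of the other integrins Itga3 turned to -0.15 against DMSO with the mean of all probe sets, and Itga7 to 0.24 against PLX7904 without vemurafenib replicate 2. With the replicate block 2 genes rose and 1 fell in both comparisons, and Itgb1 was at 0.35 (limma adjusted p = 0.0246). The numbers are not known to pair the arrays, whose deviations correlated at -0.00711. Under the block the Itgb5 probe set 1456195_x_at was called (-0.99 against DMSO, -0.64 against PLX7904), Itga3 was called against DMSO (0.44), and Mfge8 (-0.39) and Src (0.45) were not. Tns3 (-0.11) and Crk (-0.032) turned against PLX7904 with the mean of all probe sets.

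Over all genes, vemurafenib against DMSO gave 589 higher and 565 lower, but 366 and 291 without the filter, 266 and 177 with the mean of all probe sets, and 26 and 17 without the trend. Against PLX7904 the 698 and 745 became 337 and 324 with the mean of all probe sets, and 21 and 14 without the trend; 478 were lower without the filter, 452 higher and 448 lower without vemurafenib replicate 1, and 485 lower without PLX7904 replicate 2. The 0 calls of PLX7904 against DMSO became 14 higher and 15 lower without vemurafenib replicate 1, 12 and 15 without replicate 2, 2 and 2 with the replicate block, and 1 and 2 with robust fitting, the 75th percentile filter or without suffixed probe sets. None of the integrin genes tested was among them. Itga5 and Itgb8 were not tested in these settings, nor was Itgb6 with the 75th percentile filter, so these could not be called there. Signals near the filter limit what could be seen of Itga5, Itgb6 and Itgb8.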
